A study of Homo sapiens with 17 samples.

Results

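The aminoacyl-tRNA synthetases of human cells were examined in Ishikawa cells, a line grown from a human endometrial adenocarcinoma and used in place of normal endometrial epithelial cells. The genes were taken from a fixed list of names: 20 genes of cytosolic enzymes, 16 genes of mitochondrial enzymes and 3 non-enzyme partners of the cytosolic multi-synthetase complex, together 39 of the 60662 genes in the count table. The rule itself used no measured value. A gene name ending in 2 marked a mitochondrial enzyme, with the partner AIMP2 as the exception. All 39 genes were found and all passed the filter on low counts in every comparison, and the smallest count of any of them in any library was 21, for SARS2.

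RNA was sequenced from 17 cultures after 24 h. Control cultures (n = 3) received medium only, vehicle cultures (n = 3) were labelled as given Nap and ethanol, Nap cultures (n = 2) were given Nap without ethanol, again as a vehicle, and P4 cultures (n = 3) were given Nap and progesterone (P4). The sources do not say what Nap is, and they disagree on the dose of P4 and on the strength of the ethanol, so neither is given here. The study's methods list ethanol as the vehicle control beside P4, whereas the labels name ethanol for the vehicle cultures and not for the P4 cultures. If the P4 cultures held no ethanol, effects of P4 and of ethanol cannot be told apart by comparing P4 with vehicle cultures alone. For this reason P4 cultures are also set beside the Nap cultures, which carry no ethanol in their label. If the P4 cultures did hold ethanol, effects of P4 and of ethanol cannot be told apart in that comparison instead. The remaining 6 cultures, treated with recombinant PSAT1 with or without P4, have titles that contradict their column names and enter no comparison.

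Aminoacyl-tRNA synthetases attach each amino acid to its own tRNA and so supply the ribosome with charged tRNA. Human cells keep separate sets of these enzymes for the cytosol and for the mitochondrion, all encoded in the nucleus, and GARS and KARS each give both the cytosolic and the mitochondrial enzyme from a single gene. Several cytosolic enzymes sit in a large complex held together by the scaffold proteins AIMP1, AIMP2 and EEF1E1. Uncharged tRNA activates the kinase GCN2, which phosphorylates eIF2 and raises the translation of the transcription factor ATF4, and genes of cytosolic synthetases are among the known targets of ATF4. The endometrial epithelium is a secretory tissue whose output of protein changes under progesterone during the cycle.

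ATF4 and the related C/EBP proteins bind a composite element whose core can be written TGATGNAA, or TTNCATCA on the opposite strand. Promoters were taken from RefSeq (GRCh38.p14), as the 250 bases before and 50 bases after each start, and read on both strands. The cytosolic genes that carry these letters are shown, since all 7 of them were higher in P4 than in vehicle cultures, and the only mitochondrial one is shown beside them. Each line gives 30 bases in the direction of the gene, 5′ to 3′, with the element in capitals.
AARS: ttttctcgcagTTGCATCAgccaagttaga
CARS: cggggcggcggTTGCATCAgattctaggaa
GARS: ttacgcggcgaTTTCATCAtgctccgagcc
IARS: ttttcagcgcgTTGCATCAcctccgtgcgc
MARS: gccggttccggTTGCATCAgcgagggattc
NARS: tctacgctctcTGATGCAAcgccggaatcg
TARS: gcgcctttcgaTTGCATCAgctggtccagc
YARS2: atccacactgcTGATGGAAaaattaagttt
The windows lie at chr16:70289675-70289704 (- strand) for AARS, chr11:3057407-3057436 (- strand) for CARS, chr7:30594834-30594863 (+ strand) for GARS, chr9:92293692-92293721 (- strand) for IARS, chr12:57488053-57488082 (+ strand) for MARS, chr18:57621804-57621833 (- strand) for NARS, chr5:33440956-33440985 (+ strand) for TARS and chr12:32756076-32756105 (- strand) for YARS2. Of the cytosolic elements, 5 read TTGCATCA along the gene and that of NARS reads TGATGCAA, its reverse complement, and the first letter of the element stood between position -33 and position 15 from the start in 6 of the 7 genes and at -187 in AARS.

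RefSeq promoters were matched for 16 of the 20 cytosolic genes, 14 of the 16 mitochondrial genes and all 3 partners. DARS, LARS, VARS, YARS, AARS2 and VARS2 had no entry in the table. The element was present in 7 of the 16 cytosolic genes (43.8%), in 1 of the 14 mitochondrial genes (7.14%) and in 0 of the 3 partners. Some members have several promoters, and a member was counted if any of them held the element. The element was in 3.62% of all 35116 single promoters and in 4.46% of the 27305 genes they belong to. Among the 10667 matched genes tested in P4 against vehicle cultures 2.89% had the element. It was found in 4.10% of the matched genes that were higher in P4, in 2.15% of those that were lower and in 2.51% of the rest. The 7 cytosolic genes with the element were 7 of the 12 matched cytosolic genes that were higher in P4 cultures, and the 4 matched cytosolic genes that were not higher (FARSA, HARS, KARS and QARS) had none. SARS and WARS, which had the highest log2 fold changes of the 39 genes, had no match in the window. A match describes the letters only, and a window without one says nothing about binding.

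Library totals of the 11 labelled cultures ranged from 4999521 to 19704493 counts, and the smallest belonged to vehicle replicate 1. Counts were scaled to library size with edgeR's TMM method (CPM, the count scaled to a common library size), and levels of different genes were compared per kilobase of exon (RPKM). No pair of replicates was as alike as a library deposited again would be (chi-square over its degrees of freedom at least 1.48), so each culture was counted as 1 sample. Of the 7 genes chosen as markers of the endometrial epithelium, EPCAM, KRT8, KRT18, KRT19, CDH1 and PAX8 were well expressed and MUC1 was low, and their summed level was 1469 to 1536 CPM in vehicle and 1144 to 1282 CPM in P4 cultures. The 8 markers of leukocytes, endothelium and stroma summed to 68.4 to 92.7 CPM in vehicle and 65.1 to 76.1 CPM in P4 cultures, nearly all of it COL1A1 and COL3A1, and the means of PTPRC, CD3E, CD68, PECAM1, VWF and DCN were below 1 CPM in both groups, with CD3E and DCN at 0 in P4 cultures. KRT8 (log2 fold change -0.70 ± 0.0799, SE), KRT18, KRT19 and PAX8 (-0.68 ± 0.0669) were lower and CDH1 (0.24 ± 0.0751) was higher in P4 than in vehicle cultures, and COL1A1 was lower (-0.44 ± 0.107). Against Nap, KRT8, KRT18 and KRT19 were again called lower and CDH1 higher. PAX8 (-0.09 ± 0.0851) and COL1A1 (-0.10 ± 0.12) were not called against Nap, whereas COL3A1 was called lower (-0.95 ± 0.223). PAX8 was higher in vehicle than in control cultures (0.64 ± 0.0714). Whether such shifts take part in the results below was not tested, and in bulk RNA fewer cells of a type and less RNA per cell cannot be told apart.

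In control cultures the cytosolic enzyme genes were expressed at higher levels per length than the mitochondrial ones. Cytosolic levels ran from 7.08 ± 0.504 RPKM (SD, n = 3) for HARS to 92.1 ± 6.45 RPKM for EPRS, the fused enzyme for glutamate and proline. NARS (68.3 ± 3.45 RPKM) and IARS (63.2 ± 6.75 RPKM) came next, and the 2 did not differ beyond their spread. Mitochondrial levels ran from 1.25 ± 0.138 RPKM for SARS2 to 43.1 ± 2.63 RPKM for IARS2, followed by RARS2 at 19.9 ± 0.615 RPKM and YARS2 at 17.3 ± 1.13 RPKM. The partners stood at 18.1 ± 0.863 RPKM for AIMP2, 17.4 ± 0.703 RPKM for AIMP1 and 8.82 ± 0.505 RPKM for EEF1E1, and the levels of AIMP2 and AIMP1 overlapped within their SD. Cytosolic enzymes together took 0.375 ± 0.0375% of all counts in control cultures and mitochondrial enzymes 0.0656 ± 0.004%.

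The first comparison asked which of these genes differ between P4 and vehicle cultures. Most cytosolic enzymes and all 3 partners were higher in P4 cultures, by up to 3.79-fold for SARS, while the mitochondrial enzymes were mostly near their vehicle level and CARS2, LARS2, VARS2 and IARS2 were lower. With edgeR's quasi-likelihood test and Benjamini-Hochberg adjustment over all 16540 genes tested, genes were called where the adjusted p fell under 0.05. Of the 20 cytosolic enzymes 15 were called higher and 1 lower, all 3 partners were called higher, and of the 16 mitochondrial enzymes 2 were called higher and 4 lower. Among all genes tested 26.6% were called higher and 26.5% lower, so the cytosolic enzymes called higher were a larger share than the background and the mitochondrial enzymes called higher a smaller one. The mitochondrial enzymes called lower, 4 of 16, were close to the background share. The median log2 fold change was 0.79 for cytosolic enzymes, 0.84 for the partners and 0.07 for mitochondrial enzymes, beside -0.01 for all genes tested. P4 and vehicle cultures did not overlap for 28 of the 39 genes, 23 of them higher and 5 lower in P4, whereas 59.9% of all genes tested were apart in either direction.

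SARS, the seryl-tRNA synthetase (ENSG00000031698.13, chromosome 1, 109213918 to 109238169 on GRCh38), had the highest log2 fold change. Its levels were 78.5, 77.3 and 84.0 CPM in the vehicle cultures and 263, 334 and 316 CPM in the P4 cultures, with 106, 105 and 103 CPM in the controls and 119.5 and 102 CPM in the Nap cultures. Every P4 culture was thus above all 8 others, and the vehicle cultures were the lowest. The log2 fold change against vehicle was 1.92 ± 0.0865 (SE, edgeR adjusted p = 9.7e-09), and against Nap it was 1.46 ± 0.115 (edgeR adjusted p = 2.8e-06).

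WARS, the tryptophanyl-tRNA synthetase, which is also known as an interferon-induced gene (ENSG00000140105.18, chromosome 14, 100333788 to 100376805), was at 81.1, 80.4 and 80.9 CPM in vehicle and 216, 247 and 241 CPM in P4 cultures. Controls were at 101, 94.7 and 94.5 CPM and Nap cultures at 104 and 92.7 CPM. The P4 cultures lay apart from all others, with a log2 fold change of 1.53 ± 0.0686 against vehicle and 1.26 ± 0.0943 against Nap (edgeR adjusted p = 9.7e-09 and 2.1e-06). WARS and its neighbour WDR25 start head to head and share 388 bases, and WDR25 had a log2 fold change of 0.41 ± 0.177, which was not called (edgeR adjusted p = 0.069).

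GARS, the glycyl-tRNA synthetase of cytosol and mitochondrion (ENSG00000106105.14, chromosome 7, 30594681 to 30634033), was at 151, 161 and 154 CPM in vehicle and 400.2, 429 and 423 CPM in P4 cultures, beside 192, 158 and 194 CPM in controls and 182 and 163 CPM in Nap cultures. Its log2 fold change was 1.42 ± 0.0611 against vehicle and 1.28 ± 0.0867 against Nap (edgeR adjusted p = 7.1e-09 and 1.1e-06). KARS, the lysyl-tRNA synthetase that likewise serves both compartments (chromosome 16, 75627474 to 75648643), was different. It was at 110.5, 112 and 113 CPM in vehicle, 109.8, 123 and 118 CPM in P4, 153, 147 and 146 CPM in control and 153 and 131 CPM in Nap cultures. P4 and vehicle cultures overlapped (log2 fold change 0.06 ± 0.0657, edgeR adjusted p = 0.48, and -0.03 under upper-quartile scaling), and against Nap the gene was called lower at -0.27 ± 0.0938 (edgeR adjusted p = 0.03). KARS shares 858 bases with TERF2IP on the opposite strand, which was called higher against vehicle (0.87 ± 0.103). The strand setting of the counting is not given in the sources used here, so counts of genes that share bases are uncertain.

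AARS, the alanyl-tRNA synthetase (ENSG00000090861.15, chromosome 16, 70252295 to 70289543), was at 189.5, 207 and 219.9 CPM in vehicle and 402, 511 and 487 CPM in P4 cultures, and controls (229, 217 and 208 CPM) and Nap cultures (217 and 205 CPM) were within or close to the vehicle range. The log2 fold change was 1.17 ± 0.0861 against vehicle and 1.15 ± 0.105 against Nap (edgeR adjusted p = 4.8e-07 and 7.6e-06). AARS starts 120 bases from the divergent gene DDX19B, whose log2 fold change against vehicle was 0.24 ± 0.126 and was not called (edgeR adjusted p = 0.122).

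AIMP2, a scaffold of the multi-synthetase complex (ENSG00000106305.10, chromosome 7, 6009245 to 6023834), was at 26.5, 25.7 and 28.3 CPM in vehicle and 53.1, 67.2 and 61.2 CPM in P4 cultures, with controls at 35.0, 31.9 and 32.8 CPM and Nap cultures at 38.1 and 28.98 CPM. All P4 cultures were above all others, at log2 fold changes of 1.17 ± 0.0978 and 0.86 ± 0.136 against vehicle and Nap (edgeR adjusted p = 1.4e-06 and 0.00035). PMS2, a mismatch repair gene that starts 120 bases away on the other strand, was called higher too (0.97 ± 0.0842 against vehicle, edgeR adjusted p = 1.8e-06). AIMP2 also shares 1591 bases with EIF2AK1 on the opposite strand, so the count of AIMP2 is uncertain. EIF2AK1 was at 155.9 ± 8.78 CPM (SD) in vehicle cultures and was not called (0.09 ± 0.0624). EEF1E1 rose by 0.84 ± 0.102 and AIMP1 by 0.41 ± 0.0763 log2 units over vehicle. EEF1E1 shares exons with a read-through transcript to BLOC1S5, so its count is uncertain. AIMP1 shares 5952 bases with TBCK, which was called higher by a similar 0.42 ± 0.103.

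The other cytosolic enzymes called higher than vehicle were, in falling order of log2 fold change, YARS (1.04), IARS (1.02), TARS (0.95), MARS (0.90), CARS (0.87), NARS (0.82), LARS (0.76), EPRS (0.53), FARSB (0.41), DARS (0.39) and RARS (0.27), with SE of 0.0575 to 0.0806 and edgeR adjusted p of 5.4e-08 to 0.007. These enzymes charge tRNA with tyrosine, isoleucine, threonine, methionine, cysteine, asparagine, leucine, glutamate and proline, phenylalanine, aspartate and arginine, in the same order. IARS, among the most abundant by count, was at 396, 389 and 399 CPM in vehicle and 776, 819.7 and 819.8 CPM in P4 cultures. YARS shares 1387 bases with S100PBP on the opposite strand, which was not called (0.04 ± 0.0998). MARS shares 982 bases with DDIT3 on the opposite strand, and DDIT3, a transcription factor of the stress response, rose from 13.3 ± 1.27 CPM in vehicle to 210.4 ± 49.9 CPM in P4 cultures, while MARS went from 285 ± 11.8 to 535 ± 19.6 CPM (SD, n = 3 each).

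**Figure D1:**
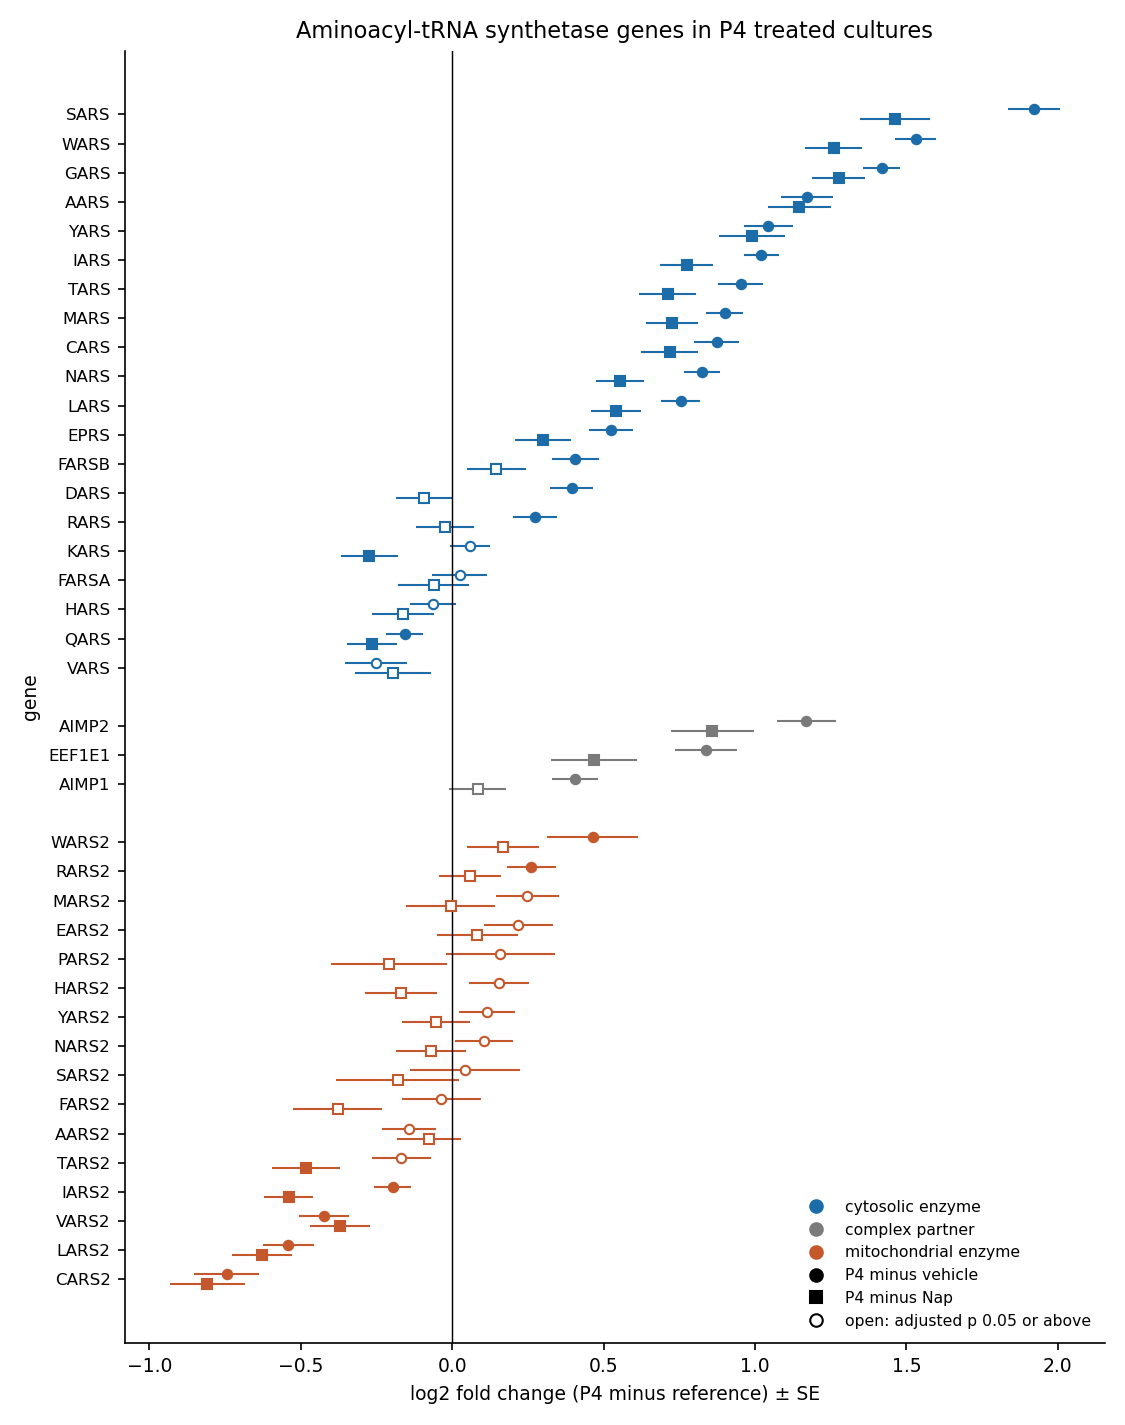
Log2 fold change (x axis, ± SE) of all 39 genes (y axis) in 3 P4 cultures against 3 vehicle cultures (circles) and against 2 Nap cultures (squares), coloured by cytosolic enzyme, partner and mitochondrial enzyme, with open symbols for genes that were not called. Cytosolic enzymes reach 1.92 for SARS against vehicle. Mitochondrial enzymes run from -0.74 for CARS2 to 0.46 for WARS2 against vehicle and down to -0.81 for CARS2 against Nap. The symbols of DARS, RARS, FARSB, AIMP1, WARS2 and RARS2 are filled against vehicle and open against Nap.

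Phenylalanyl-tRNA synthetase is built from the FARSA and FARSB subunits, whose genes differed in the comparison. FARSB was at 57.2, 64.4 and 65.5 CPM in vehicle and 76.8, 87.7 and 86.2 CPM in P4 cultures, and FARSA at 38.4, 41.8 and 38.1 CPM and 35.5, 43.0 and 42.5 CPM. P4 and vehicle cultures were apart for FARSB (log2 fold change 0.41 ± 0.0769, edgeR adjusted p = 0.00075) and overlapped for FARSA (0.02 ± 0.0922, edgeR adjusted p = 0.841). FARSA changed sign under upper-quartile scaling (-0.06) and stayed uncalled. In controls FARSB was at 75.4, 66.9 and 74.9 CPM and FARSA at 50.0, 42.5 and 41.1 CPM, in Nap cultures FARSB was at 80.7 and 70.7 CPM and FARSA at 45.4 and 39.1 CPM, and neither gene was called against Nap (log2 fold change 0.15 ± 0.0983 and -0.06 ± 0.116). The difference between the subunits was not tested.

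Cytosolic enzymes that did not rise were HARS, KARS, FARSA, VARS and QARS. VARS, the valyl-tRNA synthetase, was at 87.0, 91.1 and 83.3 CPM in vehicle, 60.3, 83.5 and 76.8 CPM in P4, 104, 77.8 and 85.0 CPM in control and 90.3 and 78.5 CPM in Nap cultures. The P4 cultures spread widely and the highest of them lay inside the vehicle range (log2 fold change -0.25 ± 0.102, edgeR adjusted p = 0.053). The value rested on single P4 cultures, at -0.34 without P4 replicate 2 (edgeR adjusted p = 0.0047, called lower) and -0.13 without P4 replicate 1 (edgeR adjusted p = 0.13). QARS, for glutamine, was called lower at -0.16 ± 0.0618 (edgeR adjusted p = 0.048), and the call was lost without any 1 of vehicle replicates 1, 2 and 3 and P4 replicates 2 and 3 (edgeR adjusted p of 0.11 to 0.14).

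HARS and HARS2, the cytosolic and mitochondrial histidyl-tRNA synthetases, start head to head on chromosome 5 (HARS at 140673904 to 140691862, HARS2 at 140691426 to 140699318) and share 437 bases. HARS was at 51.2, 53.5 and 58.5 CPM in vehicle, 53.0, 53.1 and 51.3 CPM in P4, 59.9, 52.1 and 54.8 CPM in control and 63.7 and 54.0 CPM in Nap cultures. HARS2 was at 25.2, 24.0 and 23.8 CPM in vehicle, 25.3, 29.9 and 25.9 CPM in P4, 29.3, 29.2 and 27.8 CPM in control and 28.97 and 31.9 CPM in Nap cultures. Neither was called against vehicle (-0.06 ± 0.076 for HARS and 0.15 ± 0.0992 for HARS2) or against Nap (-0.16 ± 0.102 and -0.17 ± 0.118), although the 3 P4 cultures lay just above the 3 vehicle cultures for HARS2.

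**Figure D2:**
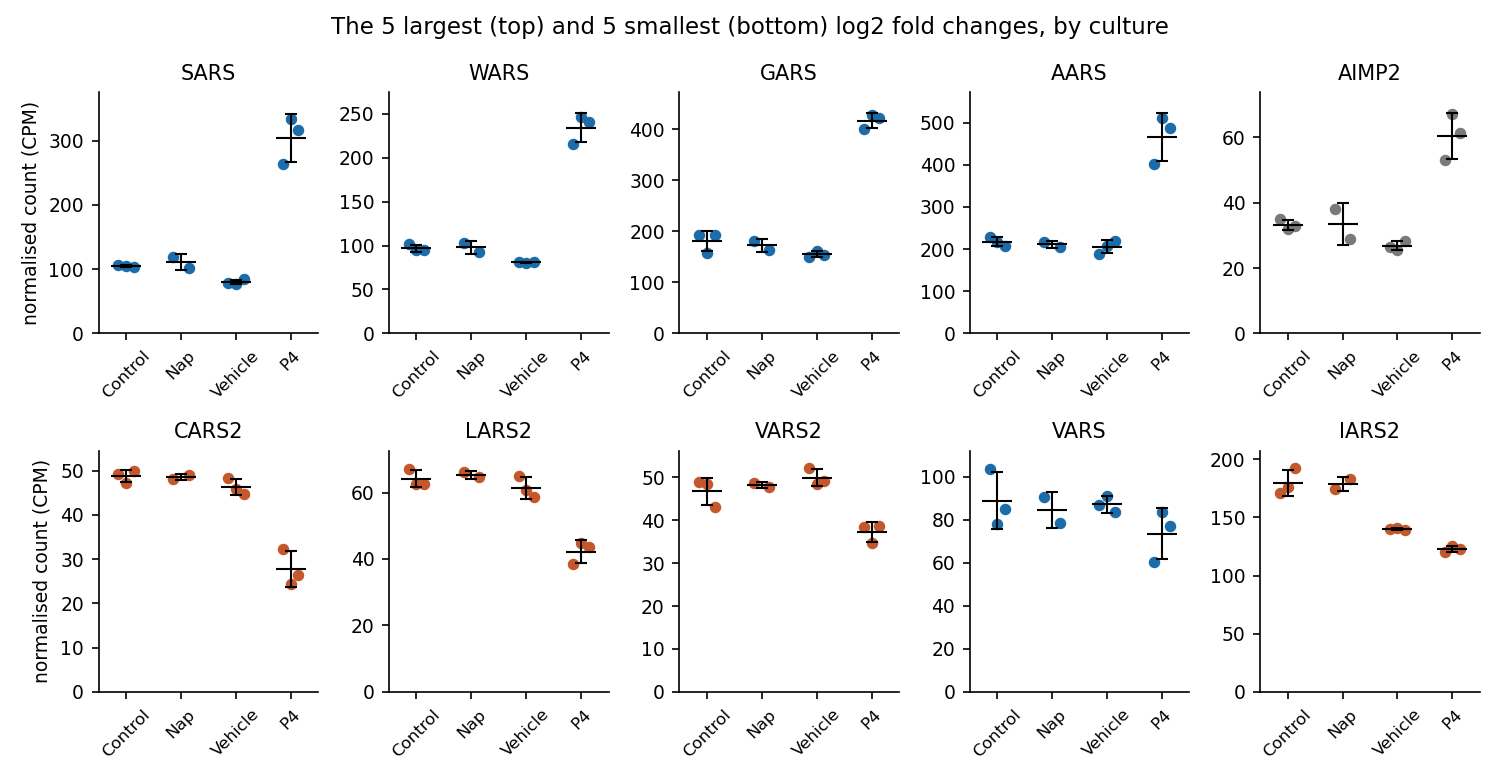
Normalised count (y axis, CPM from 0) in each control, Nap, vehicle and P4 culture (x axis) for the 5 genes at each end of the P4 against vehicle log2 fold changes, with points for cultures and bars for mean ± SD. For SARS, WARS, GARS, AARS and AIMP2 every P4 point is above all others. For CARS2, LARS2, VARS2 and IARS2 every P4 point is below all others, and for VARS the P4 points overlap the rest.

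CARS2, the mitochondrial cysteinyl-tRNA synthetase (ENSG00000134905.17, chromosome 13, 110641412 to 110713603), had the smallest log2 fold change. It was at 48.3, 45.9 and 44.7 CPM in vehicle and 32.3, 24.4 and 26.5 CPM in P4 cultures, with controls at 49.2, 47.2 and 49.9 CPM and Nap cultures at 48.1 and 49.0 CPM. The other 8 cultures lay in a narrow band above the P4 cultures, and the log2 fold change was -0.74 ± 0.107 against vehicle and -0.81 ± 0.125 against Nap (edgeR adjusted p = 0.0001 and 0.00029). CARS2 shares 868 bases with ING1 on the opposite strand, which had a log2 fold change of 0.10 ± 0.129 and was not called.

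LARS2, for leucine (chromosome 3, 45388506 to 45549421), was at 64.8, 60.8 and 58.5 CPM in vehicle and 38.4, 44.7 and 43.6 CPM in P4 cultures, beside 67.1, 62.6 and 62.6 CPM in controls and 66.2 and 64.5 CPM in Nap cultures. The gap gave log2 fold changes of -0.54 ± 0.0842 and -0.63 ± 0.0987 against vehicle and Nap (edgeR adjusted p = 0.00018 and 0.00033). VARS2, for valine, was at 52.2, 48.4 and 49.0 CPM in vehicle, 38.4, 34.6 and 38.7 CPM in P4, 48.8, 48.4 and 43.0 CPM in control and 48.8 and 47.7 CPM in Nap cultures. Again the P4 cultures were the lowest 3 (-0.42 ± 0.0826 against vehicle, edgeR adjusted p = 0.00096). VARS2 shares 5865 bases with GTF2H4 on the same strand, so its count is uncertain. GTF2H4 had means of 0.295 CPM in vehicle and 0.608 CPM in P4 cultures.

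For IARS2, which charges mitochondrial tRNA with isoleucine, the reference groups differed. The gene was at 171, 176 and 192 CPM in controls, 174 and 183 CPM in Nap, 139.6, 141 and 139 CPM in vehicle and 120.4, 125 and 122 CPM in P4 cultures. Vehicle cultures were already below controls (log2 fold change -0.33 ± 0.0708, edgeR adjusted p = 0.0022), and P4 cultures were below vehicle (log2 fold change -0.20 ± 0.0605, edgeR adjusted p = 0.016), a call that was lost without vehicle replicate 1, 2 or 3 or P4 replicate 3 (edgeR adjusted p of 0.051 to 0.086). WARS2 and RARS2 were called higher than vehicle (0.46 ± 0.15 and 0.26 ± 0.0812), but WARS2 lost the call without vehicle replicate 3 or P4 replicate 3 and RARS2 without vehicle replicate 3. The vehicle cultures of WARS2 spread from 10.6 to 19.1 CPM, and neither gene was called against Nap. RARS2 starts 64 bases from the divergent gene ORC3, which was called higher against vehicle (0.53 ± 0.105). The other 10 mitochondrial genes had log2 fold changes of -0.17 for TARS2 to 0.25 for MARS2 and were not called, namely AARS2, EARS2, FARS2, HARS2, MARS2, NARS2, PARS2, SARS2, TARS2 and YARS2. Of these EARS2, which charges mitochondrial tRNA with glutamate, was called higher when P4 replicate 1 was left out (0.35, edgeR adjusted p = 0.0011), and FARS2 changed sign without it (0.07) and stayed uncalled.

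Cytosolic and mitochondrial enzymes of the same amino acid could be paired for 13 amino acids. The cytosolic log2 fold change against vehicle was above the mitochondrial one in 12 of the 13 pairs, with a median difference of 1.07, and in 10 pairs the ratio of cytosolic to mitochondrial level was higher in every P4 culture than in any vehicle culture. The difference was widest for serine (1.88), cysteine (1.62) and alanine (1.31). It was small for valine (0.17) and arginine (0.01), and for histidine it was on the other side (-0.22). Against Nap the cytosolic enzyme was likewise above in 12 of the 13 pairs with a median difference of 1.09, though there arginine (-0.08) was the exception and histidine was at 0.01, and both comparisons share the same 3 P4 cultures. Between vehicle and control cultures the cytosolic enzyme was above in 6 pairs and below in 7, with a median difference of -0.11.

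**Figure D3:**
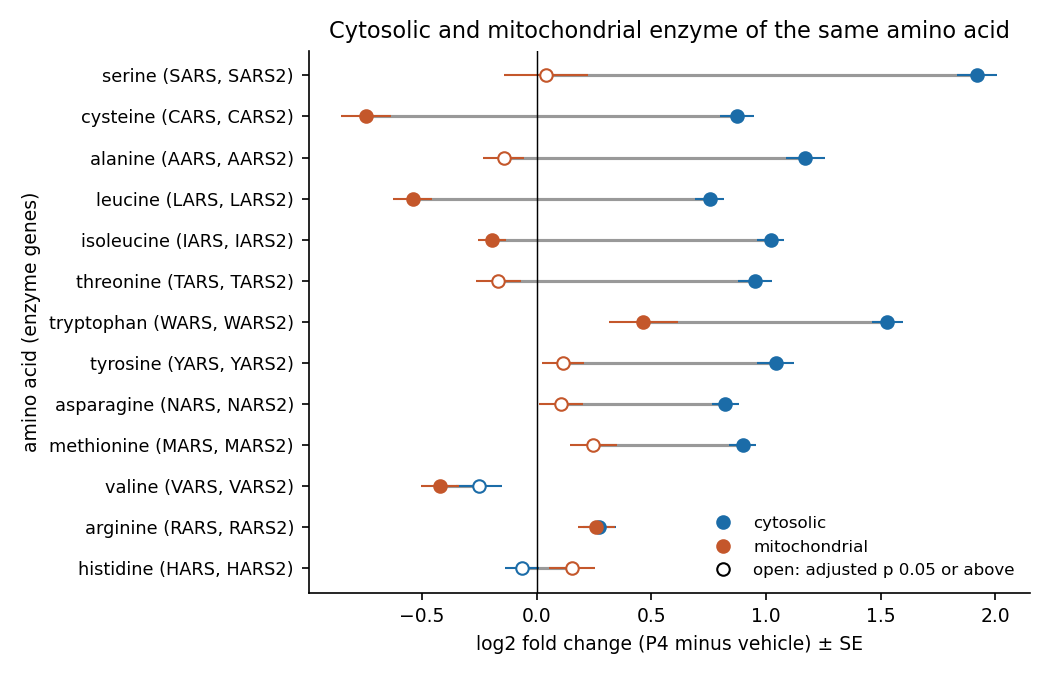
Log2 fold change in P4 against vehicle cultures (x axis, ± SE, n = 3 each) of the cytosolic (blue) and mitochondrial (orange) enzyme for 13 amino acids (y axis), with open symbols for genes that were not called. The lines are long for serine, cysteine and alanine, short for valine and arginine, and for histidine the mitochondrial point lies to the right.

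The same contrast was read within each culture, where scaling between libraries cancels. The mean log2 RPKM over the 20 cytosolic genes minus that over the 16 mitochondrial genes was 2.09, 1.98 and 2.08 in controls, 2.05 and 1.97 in Nap, 1.99, 2.02 and 2.01 in vehicle and 2.64, 2.78 and 2.73 in P4 cultures. All 3 P4 cultures were above the 8 others, which lay within a narrow range. Without GARS and KARS, which serve both compartments, the difference was 1.96 ± 0.0147 in vehicle and 2.67 ± 0.0738 in P4 cultures (SD, n = 3 each). The cytosolic mean alone was 4.60 ± 0.0293 in vehicle and 5.29 ± 0.0995 in P4 cultures, and the mitochondrial mean was 2.59 ± 0.0175 and 2.57 ± 0.0318, a difference smaller than the spread among P4 cultures. Control and Nap cultures had higher mitochondrial means, at 2.78 ± 0.0149 (n = 3) and 2.80 ± 0.044 (n = 2). The share of all counts taken by cytosolic enzymes was 0.322 ± 0.0042% in vehicle and 0.534 ± 0.0176% in P4 cultures, and that of mitochondrial enzymes was 0.0583 ± 0.0023% and 0.0495 ± 0.0004%.

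**Figure D4:**
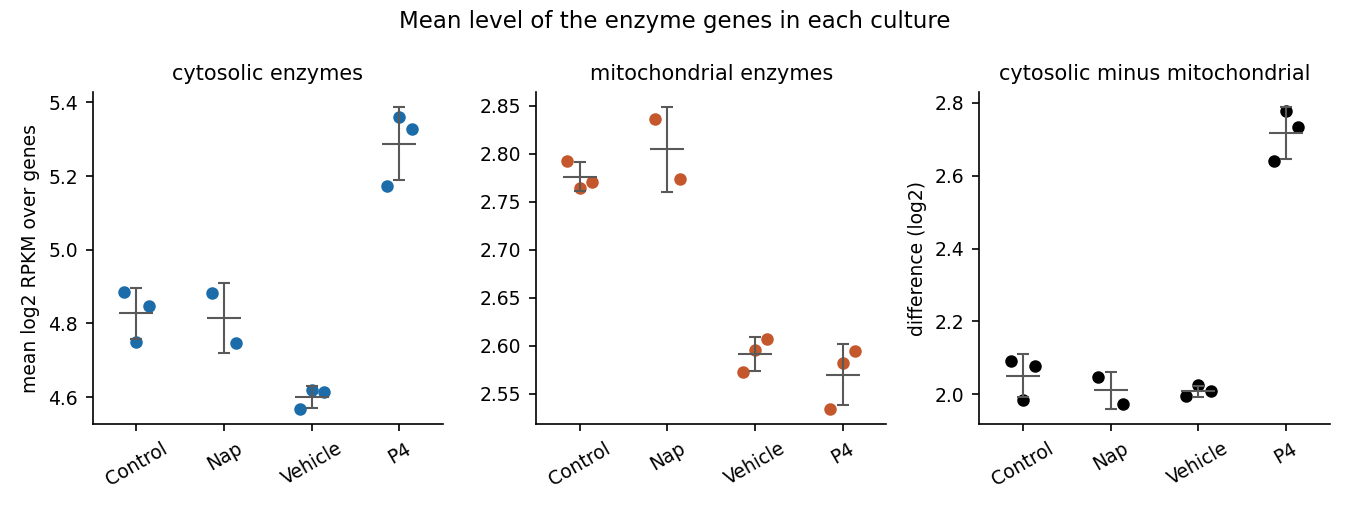
Mean log2 RPKM over 20 cytosolic and 16 mitochondrial enzyme genes and their difference (y axes, not starting at 0) in each control, Nap, vehicle and P4 culture (x axis), with points for cultures and bars for mean ± SD. The cytosolic mean is highest in the 3 P4 cultures, the mitochondrial mean is lower in vehicle and P4 cultures than in control and Nap cultures, and the difference stands apart only in P4 cultures, at 2.64 to 2.78.

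The cytosolic enzymes were also described by structure and by complex. Of the 9 cytosolic enzymes of class I, whose catalytic domain is a Rossmann fold, 7 were called higher than vehicle and 1 lower (median log2 fold change 0.87). Of the 10 of class II, which are built on an antiparallel sheet, 7 were called higher and 0 lower (median 0.62), and EPRS holds an enzyme of each class. The 8 enzymes of the multi-synthetase complex had 6 called higher and 1 lower, with a median of 0.46 and no member above 1.02, reached by IARS. Among all genes tested 26.6% were called higher and 26.5% lower. The gene called lower was QARS in both class I and the complex, and its call was lost when most single cultures were left out. The 5 cytosolic enzymes with the highest log2 fold changes, SARS, WARS, GARS, AARS and YARS, are all outside the complex. However, YARS (1.04 ± 0.0806) and the complex member IARS (1.02 ± 0.0575) did not differ beyond their SE, and the order was not tested.

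Against the Nap cultures, the P4 cultures were called higher in fewer of the genes than against vehicle, and CARS2, LARS2, VARS2, IARS2 and TARS2 were called lower. Of the cytosolic enzymes 12 were called higher and 2 lower (KARS and QARS), of the partners 2 were called higher, and of the mitochondrial enzymes 0 were called higher and 5 lower. Among the 16987 genes tested 24.8% were called higher and 24.9% lower, so the mitochondrial enzymes called lower, 5 of 16, were only a slightly larger share than the background. The medians were 0.55, 0.47 and -0.17 for cytosolic enzymes, partners and mitochondrial enzymes, beside -0.01 for all genes tested. The 7 genes called lower became 3 without Nap replicate 1 and 4 with the replicate number as a block, while those called higher went from 14 to 13 in both cases. DARS, RARS, FARSB and AIMP1, called higher than vehicle, had log2 fold changes of -0.09 ± 0.0915, -0.02 ± 0.0953, 0.15 ± 0.0983 and 0.08 ± 0.094 against Nap and were not called. DARS showed this most plainly, at 91.4, 97.3 and 103 CPM in control, 90.8 and 99.4 CPM in Nap, 68.0, 68.0 and 66.4 CPM in vehicle and 82.5, 90.9 and 93.8 CPM in P4 cultures, so that the vehicle cultures stood alone at the low end. TARS2, for mitochondrial threonine, was called lower than Nap (-0.48 ± 0.113) but not than vehicle (-0.17 ± 0.0978).

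Against the control cultures, 12 cytosolic enzymes were called higher and 2 lower, 2 partners were called higher, and 0 mitochondrial enzymes were called higher and 5 lower, where 26.8% of the 16620 genes tested were called higher and 28.0% lower. SARS (1.55 ± 0.0999), WARS (1.29 ± 0.0922), GARS (1.22 ± 0.1) and AARS (1.11 ± 0.101) had the highest log2 fold changes and CARS2 (-0.80 ± 0.113), LARS2 (-0.59 ± 0.0969) and IARS2 (-0.54 ± 0.0906) the lowest. The comparisons of P4 with vehicle, Nap and control share the 3 P4 cultures, so their values are set side by side and do not count as repeats of each other.

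Vehicle cultures were compared with controls to see how cultures given ethanol and Nap without P4 differ from cultures in medium only. None of the 39 genes was called higher, and 8 cytosolic enzymes, all 3 partners and 2 mitochondrial enzymes were called lower, where 11.9% of the 16673 genes tested were called higher and 10.7% lower. DARS (-0.50 ± 0.0744, edgeR adjusted p = 8.2e-05), EEF1E1 (-0.40 ± 0.11), KARS (-0.38 ± 0.0684) and SARS (-0.36 ± 0.071) had the lowest log2 fold changes of the genes called. The others were AIMP1, IARS2, NARS, TARS2, AIMP2, RARS, EPRS, WARS and TARS, at -0.33 to -0.20. The log2 fold change was negative for 34 of the 39 genes, with medians of -0.18 for cytosolic, -0.33 for partner and -0.19 for mitochondrial genes beside -0.01 for all genes tested. The count of 13 calls was 8, 7 and 6 without vehicle replicates 1, 2 and 3, and 20 without control replicate 2.

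Vehicle cultures were also below the Nap cultures, which differ from them in the label by ethanol alone. Here 11 cytosolic enzymes, 3 partners and 3 mitochondrial enzymes were called lower and none of the 39 higher, beside 12.7% of the 16935 genes tested called higher and 11.2% lower. DARS (-0.47 ± 0.0659) and SARS (-0.44 ± 0.0701) were again the lowest. The 17 calls were 10 without Nap replicate 1, vehicle replicate 2 or vehicle replicate 3, and 6 when all 4 groups entered the fit. Between Nap and control cultures edgeR called 0 of the 17166 genes tested (0% in either direction), with 217 genes at an unadjusted p under 0.05, and DESeq2 called 1 gene. None of the 39 genes was among the calls, and their log2 fold changes lay between -0.07 and 0.25, so at 2 cultures against 3 no difference was detectable for them.

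Genes that work next to the synthetases were taken from lists written for this purpose, and their values in P4 against vehicle cultures are given beside the background of 26.6% called higher and 26.5% lower. The lists were chosen with earlier results of these data known, so a share above the background is a description only. In the list of the amino acid response, made of ATF4, related transcription factors and their known targets, 20 of 21 genes were called higher and 0 lower, with a median log2 fold change of 1.49. TRIB3, a pseudokinase that dampens this response, had 4.34 ± 0.104 (edgeR adjusted p = 1.1e-10) at 17.8 ± 0.677 CPM in vehicle and 363 ± 47.2 CPM in P4 cultures. MTHFD2, an enzyme of mitochondrial folate metabolism, had 1.78 ± 0.06 (edgeR adjusted p = 1.5e-09), and SLC7A5, an amino acid transporter, was the gene not called (-0.13 ± 0.0782). Against Nap 19 of the 21 genes were called higher and 0 lower, with PSPH and SLC7A5 not called, beside 24.8% and 24.9% of all genes tested. Between vehicle and control cultures 4 of the 21 were called higher and 3 lower, beside 11.9% and 10.7% of all genes tested.

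Upstream of that list, the 15 genes of eIF2, its kinases, its exchange factor and its phosphatase subunits had 5 called higher and 3 lower in P4 against vehicle cultures (median 0.10). EIF2S2, the beta subunit of eIF2, was higher (0.85 ± 0.0687), as was EIF2AK3, the kinase PERK of the endoplasmic reticulum (0.87 ± 0.112). PPP1R15A, the inducible phosphatase subunit that reverses eIF2 phosphorylation, had the highest value (1.73 ± 0.205) and was already higher in vehicle than in control cultures (1.37 ± 0.114). EIF2AK2, the kinase PKR that responds to double-stranded RNA (-0.52 ± 0.0716), and GCN1, the activator of GCN2 (-0.22 ± 0.0732), were lower. EIF2AK4, which encodes GCN2 itself, was not called (-0.18 ± 0.0794), and against Nap GCN1 was not called either (-0.09 ± 0.0942).

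Among 17 genes of tRNA maturation and export 5 were called higher and 7 lower (median -0.17). XPOT, the nuclear export receptor of tRNA, went from 348 ± 12.2 CPM in vehicle to 1145 ± 68.6 CPM in P4 cultures (1.71 ± 0.0632, edgeR adjusted p = 1.9e-09), and XPO5, an exporter of small RNAs, rose by 0.71 ± 0.094 log2. POP1, a subunit of nuclear RNase P (-1.60 ± 0.11), and PRORP, the catalytic subunit of mitochondrial RNase P (-1.19 ± 0.149), were lower.

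The enzymes that act on charged tRNA had 4 of 11 genes called higher and 0 lower against vehicle (median 0.31). Against Nap 4 were called higher and 3 lower. QRSL1, the catalytic subunit of the amidotransferase that makes mitochondrial glutaminyl-tRNA, was higher (0.88 ± 0.094), while the other subunits GATB (-0.32 ± 0.141) and GATC (-0.18 ± 0.0773) were not called against vehicle. GATC was called lower against Nap (-0.37 ± 0.0994), and GATB was not called (-0.37 ± 0.166). SEPSECS, which completes selenocysteinyl-tRNA, was higher as well (0.78 ± 0.108). Of 6 cytosolic elongation factor genes 5 were tested and 4 called higher (median 0.44), with the smallest adjusted p for EEF2 (0.55 ± 0.0621) and EEF1B2 (0.44 ± 0.0633) and the highest log2 fold change for the low-expressed EEF1A2 (1.08 ± 0.206), and EEF1G, a gene that most cells use, was listed at 0. Of 8 mitochondrial translation factor genes 1 was called higher, the initiation factor gene MTIF2 (0.69 ± 0.0731), and 1 lower, GFM2, whose product acts in ribosome recycling (-0.23 ± 0.0843), with a median of 0.00. MTIF2 and EEF1B2 were lower in vehicle than in control cultures (-0.44 ± 0.0758 and -0.28 ± 0.0763). Neither was called against Nap (0.20 ± 0.0978 and 0.21 ± 0.0928). Against Nap 0 of the 8 mitochondrial factor genes were called higher and 2 lower, beside 24.8% and 24.9% of all genes tested.

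**Figure D5:**
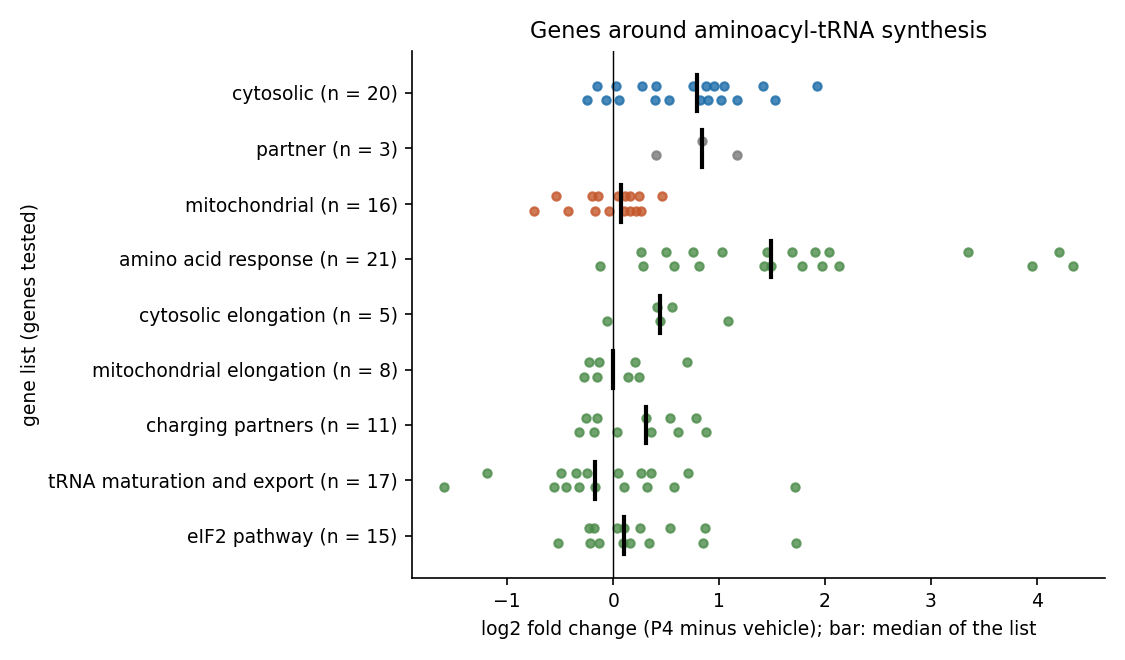
Log2 fold change in P4 against vehicle cultures (x axis) of every tested gene (points) in 9 gene lists (y axis, with the number of genes tested), with a bar at the median of each list. The amino acid response list has the highest median (1.49), cytosolic enzymes are at 0.79, and mitochondrial enzymes (0.07) and mitochondrial translation factors (0.00) lie around 0.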

How the data were processed

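The deposited table holds raw read counts per gene, which the authors made from 75-base reads with Cutadapt, a FASTX quality filter, Subread (uniquely mapped reads) and featureCounts on GENCODE 31. Tool versions and the strand setting are not given in the sources used here. Of 60662 gene identifiers, 58587 were named from GENCODE 29, 2054 from a table of gene names, and 21 stayed unnamed. No column was left out for want of a sample (0 columns), and 6 libraries with contradicting labels entered no test.

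Genes were filtered (filterByExpr, minimum count 10), scaled by TMM within the groups compared and tested with edgeR 4.0.16 (R 4.3.3, limma 3.58.1), quasi-likelihood with Benjamini-Hochberg adjustment over all genes tested. The scripts were tested on simulated data. Levels in CPM used TMM factors over all 17 libraries, and RPKM used GENCODE 29 exon lengths. SE is the log2 fold change divided by the root of the F statistic. P-values measure the spread between cultures, which the labels call biological replicates. Library totals of 4999521 to 19704493 counts set the precision, and with 3 counts as the limit of detection every member was above it. Alternatives were DESeq2 1.42.0, RLE and upper-quartile scaling, other filters, all groups in 1 fit, a replicate block and leaving out each culture. Tables were made with Python 3.11.15 and pandas 2.3.3.

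The members and gene lists were chosen with earlier results of these data known. Every member is named, with values in each culture for the 5 highest and 5 lowest log2 fold changes in P4 against vehicle, for GARS and KARS, HARS and HARS2, and FARSA and FARSB, and of each other list the 2 genes called higher and the 2 called lower at the smallest adjusted p. DARS by culture, and IARS, SLC7A5, PSPH, EEF1A2, PPP1R15A, GATB, GATC, EIF2AK4 and the neighbouring genes, were added after their values were seen. Deviations from the group means over 15657 genes correlated between same-numbered cultures at -0.0409 to 0.0525 in P4 against vehicle and between -0.0923 and 0.0788 in the other comparisons except Nap against control, where both pairs correlated (0.307 and 0.349). The labels tie the numbers to no shared day or batch and that comparison has only 2 pairs, so the numbers were not taken to pair the cultures.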

Additional observations from a re-analysis of the deposited data

Results flagged for a closer look

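The 6 libraries left out of all comparisons were read for the difference between the mean log2 RPKM of the 20 cytosolic and the 16 mitochondrial enzyme genes, and 4 of them lay above the highest control culture (2.09). The 3 libraries whose column names hold both PSAT1 and P4 were at 2.75, 2.80 and 2.81. The first of the 3 whose column names hold PSAT1 without P4 was at 2.10, barely above that control. Their titles give the reverse assignment of P4, so no treatment is attached to these values, and they were not tested.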

How the results depend on the processing

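Of 507 values of single genes in P4 against vehicle cultures under an alternative, 471 kept direction and side of the threshold, 20 lost a call, 8 gained one and 8 changed sign without a call. The 15 cytosolic enzymes called higher stayed at 15 whichever culture was left out. The 1 cytosolic enzyme called lower became 0 with DESeq2, RLE scaling or all 4 groups in the fit and 2 with upper-quartile scaling or at least 10 counts in every library, and ranged from 0 to 1 without single cultures. The 2 mitochondrial enzymes called higher became 0 under upper-quartile scaling and ranged from 0 to 3 without single cultures. The median difference between cytosolic and mitochondrial enzymes of 0.72 ranged from 0.67 to 0.78. Calls among the 39 genes ranged from 21 to 26 in P4 against vehicle, 16 to 23 against Nap, 19 to 23 against control, 6 to 20 in vehicle against control (13 with all cultures) and 10 to 21 in vehicle against Nap, where all 4 groups in the fit gave 6 in place of 17. Signs changed for FARSA (-0.0641 under upper-quartile scaling and -0.0146 to 0.1085 without single cultures, negative without P4 replicate 2 or 3 or vehicle replicate 3), KARS (-0.0301 under upper-quartile scaling), SARS2 (-0.0458 under upper-quartile scaling and -0.0451 to 0.1383 without single cultures, negative without vehicle replicate 2) and FARS2 (-0.0862 to 0.0732 without single cultures, positive without P4 replicate 1). The causes were not tested. Upper-quartile scaling moved the median of all genes from -0.01 to -0.10 and the share of calls that were higher from 50.1% to 40.7%. Over all genes, vehicle against control gave 3763 calls and 2038 or 1908 without vehicle replicate 2 or 3, vehicle against Nap 4034 and 2267 with DESeq2, 1960 with all 4 groups and 2355 or 2471 without vehicle replicate 2 or 3, P4 against Nap 8446 and 5606 or 5502 without Nap replicate 1 or 2, and Nap against control 0, with up to 5 calls under other settings and 42 with the replicate block. With the replicate block, 25 of the 39 genes were called in P4 against vehicle as without it, 21 in P4 against control, 13 in vehicle against control, 15 in vehicle against Nap, 17 in P4 against Nap and 0 in Nap against control. VARS gained a call (-0.25, edgeR adjusted p = 0.031) and QARS lost one (-0.16, edgeR adjusted p = 0.064) under the block. The shallow vehicle replicate 1 and the 2 Nap cultures limit what small differences could be called.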

Other observations

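In the 6 libraries with contradicting labels, the difference between cytosolic and mitochondrial enzymes formed 2 clusters, at 2.75, 2.80 and 2.81 where the column name holds PSAT1 and P4 and at 2.10, 2.00 and 2.02 where it holds PSAT1 only. Titles and column names divide the libraries into the same 2 sets of 3 with P4 exchanged. The labelled P4 cultures were at 2.64 to 2.78, and the labelled control, Nap and vehicle cultures at 1.97 to 2.09. Which of the labels is right was not tested. Single genes lay in the same order. IARS was at 829.5, 863.7 and 817.0 CPM in the first 3 and at 489.9, 414.6 and 470.1 CPM in the other 3. SARS was at 306, 316 and 299 CPM and 114, 91.7 and 105 CPM, and CARS2 at 27.8, 25.0 and 23.7 CPM and 49.6, 51.0 and 49.5 CPM, in the same order of libraries. DARS did not separate as widely, at 98.0, 100.3 and 90.8 CPM and 87.3, 88.8 and 88.4 CPM.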
